A study of Oryza sativa with 4 samples.

Results

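Chromatin accessibility was examined at 9 rice genes of iron uptake and iron sensing. These genes were chosen by name and identifier and not by any measured value, but with earlier results of these data known. They are the transcription factors OsIRO2 and OsIRO3, the ubiquitin ligases OsHRZ1 and OsHRZ2, the nicotianamine synthases OsNAS1, OsNAS2 and OsNAS3, and the transporters OsIRT1 and OsYSL15. Of the 46114 peaks listed for the series, 11 were assigned to these genes, at 7 of the 9. The data came from ATAC-seq, which maps open chromatin from the places where Tn5 transposase inserts, on nuclei from leaf blades of greenhouse-grown rice (Oryza sativa) seedlings. The mutant, Oshmgb1, and the wild type (WT) were each represented by 2 libraries. Both genotypes had been kept for 28 days in HP conditions, an abbreviation the labels do not spell out, so no group without that regime was compared. OsHMGB1 belongs to the HMGB family of DNA-bending chromatin proteins. The series title links it to phosphate homeostasis. The sources used here do not give the kind of mutation, the number of independent mutant lines or the number of plants per library.

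Grasses such as rice take up iron mainly by secreting mugineic acids, which bind ferric iron in the soil, and by taking the complex back into the root. Rice also takes up ferrous iron directly. Nicotianamine, made by the nicotianamine synthases from S-adenosylmethionine, is the precursor of mugineic acids and itself carries metals through the phloem to leaves and grain. Most of these genes are known for their induction in iron-starved roots. The HRZ proteins restrain that response when iron is sufficient, and they are also known to interact with OsPHR2, the central regulator of the phosphate starvation response, which ties iron and phosphate supply together.

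Reads in listed peaks numbered 7228483 to 10400677 per library, and the member peaks held from 58 to 374 reads each. Levels are TMM-normalized CPM relative to the reads in listed peaks, or as CPM per kb of peak where different peaks are compared. A log2 fold change compares Oshmgb1 with WT and is followed by its standard error (SE). The 7 peaks at 3 leaf mesophyll genes (for Rubisco and chlorophyll-binding proteins) measured 44.5 to 81.0 CPM per kb. The 2 peaks at 2 of 3 root genes of silicon transport and the Casparian strip measured 15.4 and 22.3 CPM per kb, and OsCASP1 had no listed peak. Summed over each list, the mesophyll peaks held 327 and 328 CPM in WT and 318 and 324 CPM in Oshmgb1, and the root peaks held 31.0 and 41.2 against 38.5 and 38.4 CPM. None of these 9 peaks was called, but single ones departed from the sums. The OsLsi2 peak had a log2 fold change of 0.54 ± 0.22 (unadjusted edgeR p 0.0158) beside -0.10 ± 0.16 at OsLsi1. An OsRBCS promoter peak centred 1718 bp upstream had 0.50 ± 0.18 (edgeR p 0.00764 unadjusted and 0.225 adjusted). The OsRBCS peaks in the 5′ UTR and the 3′ UTR had -0.07 ± 0.11 and -0.04 ± 0.20. An unadjusted edgeR p under 0.05 was found at 12.2% of all peaks. The part of these marker peaks in the results at the iron genes was not tested. Across all peaks, edgeR called 148 (0.321%) higher and 38 (0.0824%) lower in Oshmgb1, or 133 and 88 with scaling to the totals that underlie the deposited RPKM and 93 and 50 with an offset that depends on peak intensity.

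The listed peaks of the 7 genes lay at the gene start or just upstream of it, and for 4 genes also within the gene or at its end. OsIRO2 (LOC_Os01g72370, chromosome 1, minus strand) had a peak of 824 bp at 41977897 to 41978720, which the deposited table assigns to the 5′ UTR and which ran from 312 bp before the annotated gene start to 511 bp after it. Its second peak, in the 3′ UTR at 41971623 to 41972127, lay near the far end of this long gene. The next listed peak, 604 bp further on, is assigned to the promoter of a neighbouring gene, LOC_Os01g72360. OsIRO3 (LOC_Os03g26210, chromosome 3, plus strand) had a promoter peak over the gene start at 14999713 to 15000194 and a peak in its last exon, exon 4 of 4, at 15001535 to 15002105. OsHRZ1 (LOC_Os01g49470, chromosome 1, minus strand) had a promoter peak over the gene start at 28458760 to 28459294. Its other peak, in the 3′ UTR at 28447523 to 28448451, reached 364 bp beyond the gene end, and 147 bp further on began the next peak, which belongs to a neighbouring gene described as an exocyst subunit. OsHRZ2 (LOC_Os05g47780, chromosome 5, plus strand) had 1 listed peak, centred 1263 bp upstream of its start at 27375840 to 27376708.

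Among the synthesis and transport genes, OsNAS1 (LOC_Os03g19427, chromosome 3, minus strand) had a promoter peak over its start at 10930822 to 10931196. The peak of OsNAS3 (LOC_Os07g48980, chromosome 7, plus strand), at 29322059 to 29322501, was centred 814 bp upstream. OsIRT1 (LOC_Os03g46470, chromosome 3, minus strand) had a promoter peak centred 384 bp upstream at 26292220 to 26292595 and a peak in intron 1 of 1 at 26288897 to 26289318. Peak positions are those of the deposited table, and the sources used here do not give its genome build. Peaks covered the annotated start in 4 of the 7 genes, namely OsIRO2, OsIRO3, OsHRZ1 and OsNAS1.

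OsNAS2 (LOC_Os03g19420) and OsYSL15 (LOC_Os02g43410), the transporter of iron bound to deoxymugineic acid, had no listed peak. The authors' peaks are numbered in genome order up to 57405, and some numbers are not listed, so the gap at each gene could be checked for missing numbers. At OsNAS2 the neighbouring listed peaks were that of OsNAS1 on one side and a 3′ UTR peak of LOC_Os03g19410 on the other, 4.75 kb apart, with 0 numbers missing between them. At OsYSL15 the neighbours, at LOC_Os02g43400 and LOC_Os02g43430, were 18.5 kb apart, again with 0 numbers missing. Of 39940 pairs of consecutively numbered peaks, 33.4% were at least as far apart as the OsNAS2 pair and 5.21% as the OsYSL15 pair, where the median distance was 2.61 kb. No read counts are listed for these stretches, so no level, limit or genotype difference can be given for either gene. OsNAS1 and OsNAS2 are close relatives side by side, and if their sequences are alike, reads could have been placed at either of them. Between the listed neighbours of OsHRZ2 and of OsNAS3, 2 and 5 numbered peaks are not listed and were not analysed here. All numbered peaks between the listed neighbours of the other 5 genes are among the 11.

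The promoter of OsIRO3, a bHLH repressor of the iron deficiency response, was the most accessible of the 11 peaks, at 67.6 ± 12.7 CPM per kb in WT and 63.3 ± 5.23 in Oshmgb1 (SD, n = 2). It stood at the 97.6th percentile of all listed peaks and at the 95.4th of promoter peaks. Its lowest library, at 58.6 CPM per kb, lay above the highest library of every other member peak, of which the next, the OsIRO2 3′ UTR peak, reached 44.3. This was the only break in the order: from there down, each peak's range over the 4 libraries overlapped that of its neighbour. The order by mean over the 4 libraries ran from the OsIRO2 3′ UTR peak (40.5 CPM per kb) through the OsHRZ1 3′ UTR peak (35.8), the OsHRZ1 promoter (30.7) and the OsIRO3 exon (30.6) to the OsIRT1 intron (23.3). Below these came the OsIRT1 promoter (22.6), the OsIRO2 5′ UTR peak (21.8), the OsNAS1 promoter (21.1), the OsHRZ2 promoter (20.6) and the OsNAS3 promoter (19.1). The median of all listed peaks was 25.6 CPM per kb, and 6 of the 11 lay below it.

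Within their own annotation classes, 5 of the 7 peaks at or before a gene start were low. The OsNAS3, OsHRZ2, OsNAS1 and OsIRT1 promoters stood at the 10.1th, 17.4th, 19.7th and 26.9th percentiles of promoter peaks, and the OsIRO2 5′ UTR peak at the 15.8th of 5′ UTR peaks. The OsHRZ1 promoter, at the 54.9th, was near the middle. The far peaks of the regulators were high for their class, with OsIRO2 at the 91.4th and OsHRZ1 at the 85.7th percentile of 3′ UTR peaks and the OsIRO3 exon at the 85.5th of exon peaks. The list holds only peaks that were called, so a low percentile is low among open sites. Accessibility of bulk nuclei is not expression, and a difference in the cell make-up of the leaf cannot be told apart from a difference per cell.

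**Figure D1:**
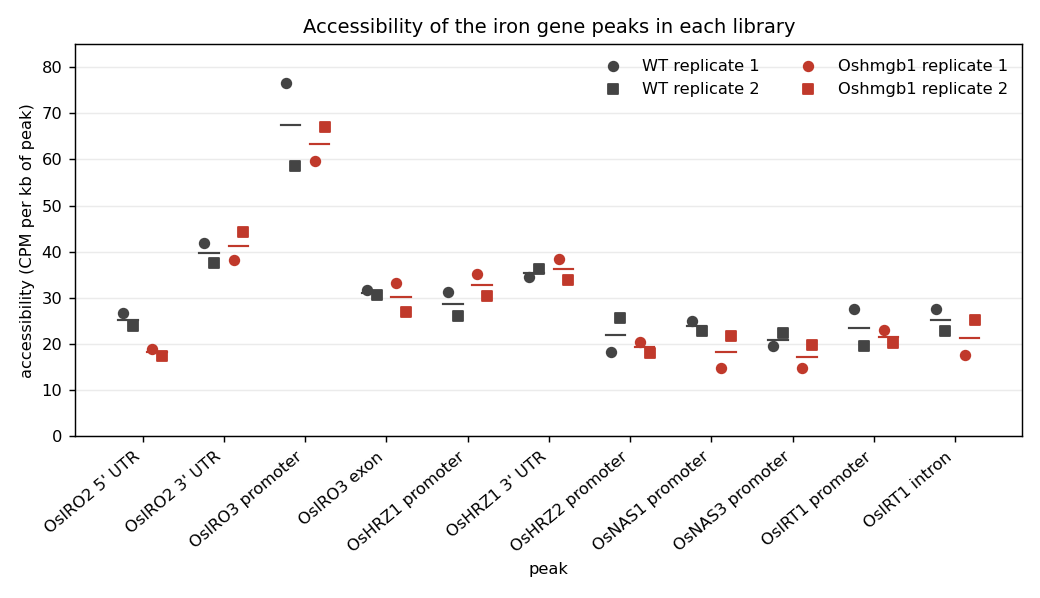
Accessibility in CPM per kb of peak (y axis) at the 11 peaks (x axis), with 1 point per library, grey for WT and red for Oshmgb1, circles for replicate 1 and squares for replicate 2, and lines for the mean of each genotype (n = 2). The OsIRO3 promoter stands above all other peaks in each library, and the WT and Oshmgb1 points do not overlap at the OsIRO2 5′ UTR peak and the OsNAS1 promoter.

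The comparison of Oshmgb1 with WT asked whether accessibility at the iron genes differed with OsHMGB1 genotype. None of the 11 peaks was called, 0 higher and 0 lower, at an adjusted p under 0.05 (edgeR, quasi-likelihood, Benjamini-Hochberg), where 0.403% of all peaks were called, 0.321% higher and 0.0824% lower. Adjusted p ran from 0.262 to 0.956. DESeq2 and the authors' deposited table also called 0 of the 11, beside 0.0976% and 0.102% of all peaks. At an unadjusted p under 0.05 there was 1 peak, at OsIRO2, by edgeR, by DESeq2 and in the authors' deposited table, against 12.2%, 3.78% and 4.79% of all peaks. The median log2 fold change over the 11 was -0.11, beside -0.01 over all peaks, and 8 of 11 were below 0, beside 51.1% of all peaks. The median was -0.02 without WT replicate 1 and -0.19 without WT replicate 2. The number below 0 was 9 with the library totals behind the RPKM and 7 without WT replicate 1. In all 11 peaks the 95% interval left out a 2-fold difference, as it did in 95.2% of all peaks. These intervals rest mostly on the spread pooled over all peaks, and little on the spread at each peak.

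OsIRO2 is the bHLH factor that activates genes of mugineic acid synthesis and uptake, among them nicotianamine synthase genes and OsYSL15. At its start, the 5′ UTR peak measured 22.0 and 19.7 CPM in the WT libraries and 15.7 and 14.3 CPM in the Oshmgb1 libraries. Both mutant libraries thus lay below both WT libraries, as they did in 21.6% of all peaks, where 43.2% had no overlap in either direction. The log2 fold change was -0.47 ± 0.19 (SE), with a 95% interval of -0.84 to -0.10. The edgeR p was 0.0126 before and 0.262 after adjustment, which is not past the threshold. The difference of the means, 20.8 ± 1.66 against 15.0 ± 0.928 CPM (SD, n = 2), exceeded the spread within each genotype. The log2 fold change was -0.39 without WT replicate 1 and -0.41 without Oshmgb1 replicate 2. Under the 13 alternatives it ran from -0.55 to -0.39. As the genotypes did not overlap, leaving 1 library out could not turn its sign, so the constant sign adds no support. The authors' deposited table gives this peak a log2 ratio of -0.52, a p of 0.0258 and an FDR of 0.956.

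At the other end of the same gene, the OsIRO2 3′ UTR peak measured 21.2 and 18.9 CPM in WT and 19.3 and 22.4 CPM in Oshmgb1. The genotypes overlapped, and the log2 fold change was 0.05 ± 0.18 with an adjusted p of 0.939.

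OsIRO3 represses the iron deficiency response and is itself induced by it. Its promoter peak measured 36.9 and 28.2 CPM in WT and 28.7 and 32.3 CPM in Oshmgb1. Both mutant libraries lay between the WT libraries, and the log2 fold change was -0.09 ± 0.15 (adjusted p 0.848), or 0.11 without WT replicate 1. The exon peak measured 18.1 and 17.5 CPM in WT and 19.0 and 15.4 CPM in Oshmgb1, so that the WT values lay within the mutant range. Its log2 fold change was -0.04 ± 0.19 (adjusted p 0.956).

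OsHRZ1 and OsHRZ2 are iron-binding ubiquitin ligases that limit iron uptake and storage. The OsHRZ1 promoter measured 16.7 and 13.9 CPM in WT and 18.8 and 16.3 CPM in Oshmgb1. The genotypes overlapped, and the log2 fold change was 0.21 ± 0.19 with an adjusted p of 0.702. It was 0.34 without WT replicate 1, 0.080 without WT replicate 2 and 0.10 without Oshmgb1 replicate 1. The OsHRZ1 3′ UTR peak measured 32.0 and 33.7 CPM in WT and 35.7 and 31.5 CPM in Oshmgb1. Here the mutant libraries were the highest and the lowest of the 4, and the log2 fold change of 0.03 ± 0.14 turned to -0.0090 with the library totals behind the RPKM.

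OsHRZ2, the second ligase, had its upstream peak at 15.9 and 22.4 CPM in WT and 17.8 and 15.7 CPM in Oshmgb1. WT replicate 2 stood above the other 3 libraries. The log2 fold change was -0.19 ± 0.19 (adjusted p 0.716), and 0.085 without that library, so its direction rested on WT replicate 2.

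The nicotianamine synthases with a peak, OsNAS1 and OsNAS3, had the lowest read counts of the set together with OsIRT1. The OsNAS1 promoter measured 9.40 and 8.55 CPM in WT and 5.54 and 8.16 CPM in Oshmgb1. Both mutant libraries lay below both WT libraries, replicate 2 only narrowly. The log2 fold change was -0.40 ± 0.24, with a 95% interval of -0.88 to 0.07, an unadjusted p of 0.0948 and an adjusted p of 0.509. It was -0.13 without Oshmgb1 replicate 1 and -0.69 without Oshmgb1 replicate 2. The OsNAS3 promoter measured 8.70 and 9.90 CPM in WT and 6.59 and 8.75 CPM in Oshmgb1. Oshmgb1 replicate 1 was again the lowest library, and replicate 2 lay within the WT range. The log2 fold change was -0.29 ± 0.23 (adjusted p 0.647), and -0.09 without Oshmgb1 replicate 1.

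OsNAS1 and OsNAS3 lie on different chromosomes but had similar neighbours. On one side of each, the nearest listed peak belonged to a gene described as a probable chloroplastic glutamyl endopeptidase, LOC_Os03g19410 on chromosome 3 and LOC_Os07g48970 on chromosome 7. Those peaks had log2 fold changes of 0.0032 ± 0.18 and -0.19 ± 0.23, with adjusted p of 0.998 and 0.787.

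OsIRT1, the ferrous iron transporter of the root surface, had 60 to 91 reads per library and peak. Its promoter measured 10.4 and 7.33 CPM in WT and 8.69 and 7.58 CPM in Oshmgb1. The mutant values lay between the WT values, and the log2 fold change was -0.11 ± 0.23 (adjusted p 0.896), or 0.16 without WT replicate 1. The intron peak measured 11.6 and 9.65 CPM in WT and 7.45 and 10.6 CPM in Oshmgb1. Oshmgb1 replicate 1 was the lowest of the 4, and replicate 2 lay between the WT libraries. The log2 fold change was -0.25 ± 0.23 (adjusted p 0.702), and 0.0047 without Oshmgb1 replicate 1. Thus the lowest of the 4 libraries at the OsNAS1 and OsNAS3 promoters and the OsIRT1 intron was the same one, Oshmgb1 replicate 1, as at 3 of the 11 peaks in all. The lowest value was in Oshmgb1 replicate 2 at 4 peaks, in WT replicate 2 at 4 and in WT replicate 1 at 0.

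**Figure D2:**
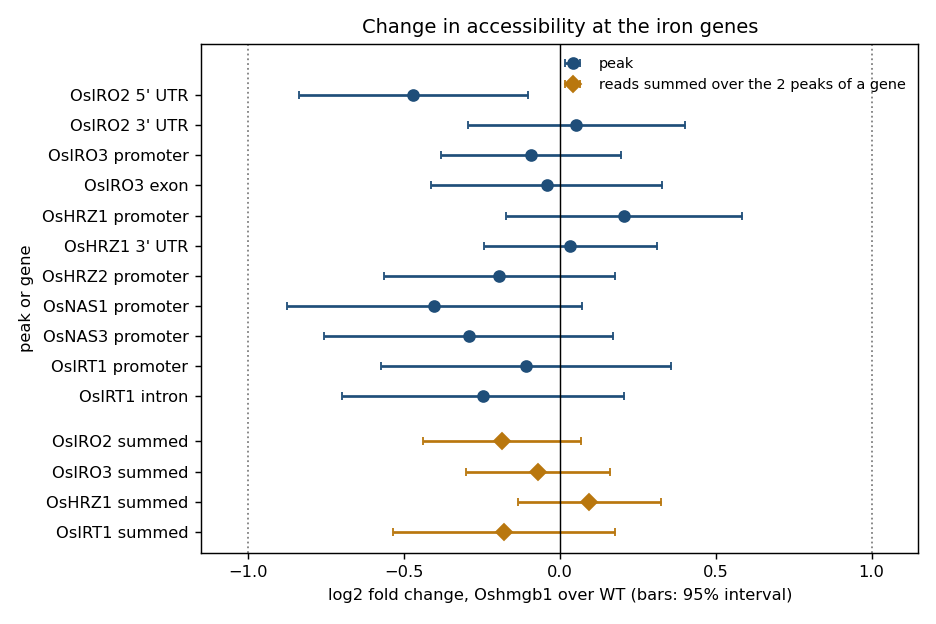
Log2 fold change of Oshmgb1 over WT (x axis) at each of the 11 peaks (circles) and for the reads summed over the peaks of the 4 genes that have 2 (diamonds), with edgeR's 95% intervals as bars and dotted lines at a 2-fold difference. The interval of the OsIRO2 5′ UTR peak leaves out 0, while its adjusted p was 0.262, and the intervals of the other 10 peaks and of the 4 sums include 0.

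Where a gene has 2 peaks, the split of its reads between them does not depend on library size. In OsIRO2 the 5′ UTR peak held 51.0% of the gene's reads in WT replicate 1 and 50.9% in WT replicate 2. In the mutant it held 44.8% in Oshmgb1 replicate 1 and 39.0% in replicate 2, so the genotypes did not overlap. Of the 7862 genes with 2 listed peaks, 42.7% had a split without overlap between genotypes, in either direction. The exact (Clopper-Pearson) 95% intervals, which cover counting error only, were 45.2% to 56.7% and 45.3% to 56.6% in WT and 39.6% to 50.1% and 33.6% to 44.7% in Oshmgb1. The mean share was 51.0% ± 0.0174 in WT and 41.9% ± 4.07 in Oshmgb1 (SD, n = 2), a difference of -9.03 percentage points. The exact two-sided permutation test gave p = 0.333, which is the smallest value that 2 libraries against 2 allow.

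The shares of the other 3 genes overlapped between genotypes. The promoter share of OsIRO3 was 64.4% ± 3.77 in WT and 64.0% ± 5.32 in Oshmgb1 (SD, n = 2). That of OsHRZ1 was 31.8% ± 3.58 and 34.3% ± 0.251, and that of OsIRT1 was 45.2% ± 2.81 and 47.8% ± 8.61. The exact permutation p was 1 for OsIRO3 and OsIRT1 and 0.667 for OsHRZ1. These shares were 4 comparisons of the same kind, and no adjustment could bring any of them past the threshold.

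**Figure D3:**
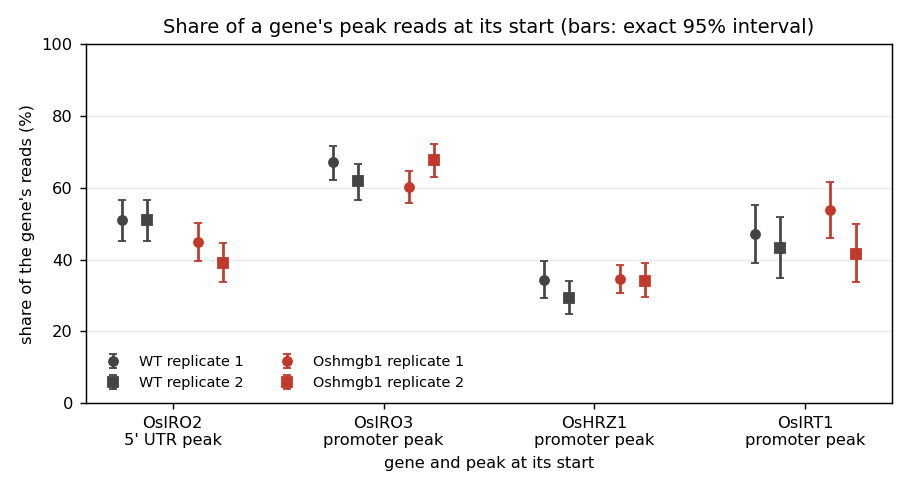
Share of each gene's listed peak reads that fell in the peak at its start, in % (y axis), for the 4 genes with 2 peaks (x axis), with 1 point per library, grey for WT and red for Oshmgb1, and exact 95% binomial intervals as bars. At OsIRO2 the WT libraries stand at 51.0% and 50.9% and the Oshmgb1 libraries at 44.8% and 39.0%, and at the other genes the genotypes overlap.

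Reads were also summed over all listed peaks of each gene and tested over 27130 genes. None of the 7 iron genes was called by edgeR or by DESeq2, nor were the 6 with a promoter peak from promoter peaks alone, which leaves out OsIRO2. Among all genes edgeR called 0.546% of all genes, 0.464% higher and 0.0811% lower. An unadjusted edgeR p under 0.05 was found in 0 of the 7, beside 12.5% of all genes. OsIRO2 as a whole measured 40.9 ± 3.13 CPM in WT and 35.9 ± 1.18 in Oshmgb1 (SD, n = 2), a log2 fold change of -0.19 ± 0.13 with an adjusted p of 0.578. OsHRZ1 measured 48.1 ± 0.584 and 51.3 ± 4.87 CPM, with 0.10 ± 0.12. OsIRO3 was at 50.3 ± 6.42 and 47.8 ± 0.144 CPM, with -0.07 ± 0.12. OsIRT1 was at 19.5 ± 3.50 and 17.2 ± 1.42 CPM, with -0.18 ± 0.18. Per kb of peak, OsIRO3 was the most open of the 7 genes in WT, at 47.7 ± 6.09 CPM per kb, followed by OsHRZ1 at 32.9 ± 0.399 and OsIRO2 at 30.7 ± 2.35. OsIRT1, OsNAS1, OsHRZ2 and OsNAS3 came last, at 24.4 ± 4.39, 23.9 ± 1.52, 22.0 ± 5.35 and 21.0 ± 1.97. Each of these 4 overlapped its neighbour in this order, while both WT libraries of OsNAS1 lay above both of OsNAS3.

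The rest of the iron pathway was read from 3 lists of 27 further genes, of which 20 were used, 6 had no listed peak and 1, OsENA2, was left out because the table describes its identifier as another gene. None of their 33 peaks was called by edgeR, by DESeq2 or in the authors' deposited table, where 0.403%, 0.0976% and 0.102% of all peaks were called. An unadjusted p under 0.05 was found at 1, 1 and 2 of them, beside 12.2%, 3.78% and 4.79% of all peaks. By edgeR this count also rose without WT replicate 2, a fit that leaves 1 WT library. The count was 3 with the totals that underlie the RPKM, where the share of all peaks at that p was not counted. Calls over all peaks also rose with those totals, from 186 to 221. The median log2 fold change of the 33 peaks was -0.05, beside -0.01 over all peaks, and 20 of 33 were below 0, beside 51.1% of all peaks. The number below 0 was 24 with the totals that underlie the RPKM, beside 58.5% of all peaks. It was 16 with the offset that depends on peak intensity, beside 50.2%. Of the 14 peaks whose genotypes did not overlap, 9 were below WT and 5 above, where each direction held 21.6% of all peaks. The 9 studied genes had 2 peaks below and 0 above.

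In the list of synthesis and release of mugineic acids, 3 of 5 genes were used and had 5 peaks, with a median of 0.07. The lowest unadjusted p were at OsDMAS1 (LOC_Os03g13390), the deoxymugineic acid synthase. Its downstream peak measured 11.8 and 10.3 CPM in WT and 12.5 and 14.6 CPM in Oshmgb1, with 0.30 ± 0.21. Its exon peak had -0.25 ± 0.19, and adjusted p were 0.603 and 0.617. With a library left out, the downstream value ran from 0.18 to 0.41 and the exon value from -0.40 to -0.076. In the list of transport and storage, 11 of 15 genes had 16 peaks, with a median of -0.02. OsVIT2 (LOC_Os09g23300), a vacuolar iron transporter, had the lowest p of all 33. Its 3′ UTR peak measured 6.31 and 5.62 CPM in WT and 10.3 and 9.10 CPM in Oshmgb1. The peak was low, with 45 and 46 reads in WT, at the 3.38th percentile of all listed peaks per kb. The mutant libraries lay above both WT libraries. The log2 fold change was 0.71 ± 0.24, or 0.63 with the offset that depends on peak intensity. The edgeR p was 0.00393 before and 0.175 after adjustment, which is not past the threshold. An intron peak of OsYSL13 (LOC_Os04g44300), of the family of metal-nicotianamine transporters, had -0.35 ± 0.21. Its edgeR p was 0.0886 before adjustment, and it was not called.

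The list of other iron regulators had 12 peaks at 6 of 7 genes, with a median of -0.15. Of the 12, 8 were below 0, beside 51.1% of all peaks. The lowest p were at OsIDEF2 and OsbHLH156. OsIDEF2 (LOC_Os05g35170), a NAC factor of the iron deficiency response, had a promoter peak at 72.7 and 63.5 CPM in WT and 57.1 and 60.3 CPM in Oshmgb1. Its log2 fold change was -0.21 ± 0.11, with an adjusted p of 0.431. OsbHLH156 (LOC_Os04g31290), a partner of OsIRO2, had a 3′ UTR peak at 7.44 and 8.19 CPM in WT and 10.3 and 10.8 CPM in Oshmgb1. Its log2 fold change was 0.43 ± 0.23 with an adjusted p of 0.445, or 0.39 with the offset that depends on peak intensity. Per kb, this peak stood at the 0.958th percentile of all listed peaks.

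**Figure D4:**
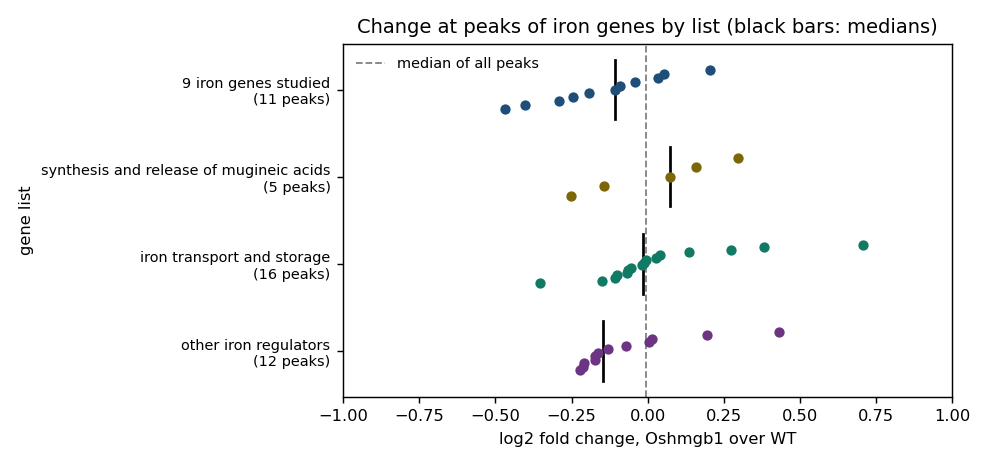
Log2 fold change of Oshmgb1 over WT (x axis) at each peak of the 9 studied iron genes and of the 3 lists of other iron genes (rows), with 1 point per peak, a black bar at each median and a dashed line at the median of all listed peaks, -0.01. The medians are -0.11, 0.07, -0.02 and -0.15 from top to bottom, and none of the 44 points belongs to a called peak.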

How the data were processed

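ATAC-seq libraries were made from leaf nuclei with Tn5, per the labels' protocols. The submitters' processing notes name MACS2 2.1.2, ChIPseeker 1.16.1, Bowtie2 2.4.4, fastp 0.23.0 and bcl2fastq 2.19, with no role for each. The sources used here do not give their settings, the genome build, or whether Tn5 cuts were shifted and duplicates removed, all of which could move counts. The deposited counts, reads per merged peak and library, were the values tested. RPKM deposited by the authors served to recover the library totals. The authors' log2 ratio, p-value and FDR in the deposited table were an alternative set of calls. No column belongs to another sample (0 found).

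Counts of all peaks were fitted in R 4.3.3 with edgeR 4.0.16 (TMM, default filter, which removed 0 peaks, quasi-likelihood test, adjusted p under 0.05). The same was done for reads summed per gene. DESeq2 1.42.0 was an alternative, and limma 3.58.1 gave the intensity-dependent offset. SE were derived from the F statistic. The fits were tested on simulated data. Figures used matplotlib 3.10.9 in Python 3.11.15. Chi-square over degrees of freedom between replicates was 2.50 in WT and 2.25 in Oshmgb1, above sampling noise, so each library counted as a sample. Nothing says that libraries came from separate plants, so p-values measure the spread between libraries, which may be technical. In edgeR that spread came mostly from all peaks pooled: the pooled value carried a median weight of 102 degrees of freedom. An SE or interval therefore says little about the spread at its own peak. The OsHRZ2 peak and the OsIRO3 exon peak both had an SE of 0.19. Their SD were 4.60 and 0.441 CPM in WT, and 1.42 and 2.55 CPM in Oshmgb1.

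All peaks of the 9 genes were named, and per list of other iron genes any called peak and the 2 with the lowest p. Members and lists were chosen with earlier results of these data known. Gene names were matched by identifier from background knowledge. An entry was used only if the table's symbol or description held a word of its family, and these words were widened for some genes after the descriptions were read, without regard to values. By that rule 1 listed gene was left out. Planned motif and protein comparisons were not made here.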

Additional observations from a re-analysis of the deposited data

How the results depend on the processing

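Under the 13 alternatives run for peaks, among them each library left out, and those run for genes, 0 of the 11 iron gene peaks and 0 of the 7 summed genes were called, and 0 peaks of the other iron lists. Direction was less firm: 4 peaks (the OsIRO2 5′ UTR peak and the OsHRZ1, OsNAS1 and OsNAS3 promoters) kept their sign throughout, and 7 turned when some library was left out. At the OsIRO2 5′ UTR peak and the OsNAS1 promoter the genotypes did not overlap, so leaving 1 library out could not turn the sign. Leaving out libraries gave log2 fold changes of -0.41 to 0.085 at OsHRZ2, -0.27 to 0.11 at the OsIRO3 promoter, -0.20 to 0.10 at its exon, -0.055 to 0.17 at the OsIRO2 3′ UTR, -0.057 to 0.12 at the OsHRZ1 3′ UTR, -0.34 to 0.16 at the OsIRT1 promoter and -0.51 to 0.0047 at its intron. For summed genes it gave -0.20 to 0.060 at OsIRO3, -0.0083 to 0.18 at OsHRZ1, -0.41 to 0.091 at OsHRZ2 and -0.36 to 0.0088 at OsIRT1. The 6 named peaks of other iron genes, picked for their low p, kept their sign. Except at the OsDMAS1 exon peak, their genotypes did not overlap, so leaving 1 library out could not turn it. The OsHRZ1 3′ UTR peak also turned to -0.0090 with the RPKM totals and to -0.012 in the authors' deposited table. Over all peaks, calls numbered 186, but 45 by DESeq2, 47 by the authors' FDR and 75 to 530 with a library left out. Over genes they numbered 148, but 36 by DESeq2 and 49 to 390 with a library left out. The cause was not tested. Levels per kb are lower when scaled to the totals behind the RPKM (5.80 against 21.8 at the OsIRO2 5′ UTR), since those totals exceed the reads in listed peaks. A lone library in an arm was assumed to vary like the others. With the replicate number as a block, 179 peaks and 0 of the 11 were called. Over peaks, same-numbered libraries did not deviate together (correlation -0.038). With 2 libraries per genotype, this 1 correlation cannot tell whether the numbers stand for a pairing. The intensity-dependent offset was chosen after seeing the data. Depth limits the OsNAS1, OsNAS3 and OsIRT1 peaks most, with 58 to 91 reads per library.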

Other observations

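Over all peaks, the log2 fold change varied with the level of accessibility. When peaks were ranked by mean log2 CPM and split into 10 groups of like size, the median was 0.11 in group 1, with the lowest CPM, and -0.05 in group 10, with the highest. The OsIRT1, OsNAS1 and OsNAS3 promoters fell in group 2 and the OsIRT1 intron in group 3, where the medians of all peaks were 0.05 and 0.03, while their own values ran from -0.40 to -0.11. With an offset that takes out this trend, the median of the 11 iron gene peaks was -0.17 beside -0.11, and that of the 33 other iron peaks was 0.00052 beside -0.05. The unadjusted edgeR p was then 0.0151 at the OsIRO2 5′ UTR and 0.0476 at the OsNAS1 promoter, beside 0.0126 and 0.0948 without the offset. The share of all peaks with an unadjusted p under 0.05 was not counted with this offset, so these p cannot be set against it. Neither was called, with adjusted p of 0.308 and 0.422.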
